A study of Mus musculus with 4 samples.

Results

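The replication-dependent histone genes are the clustered genes for the linker histone H1 and the core histones H2A, H2B, H3 and H4. They were taken here as the rows of the count table whose gene symbol belongs to the Hist1h to Hist4h families or to the newer families H1f1 to H1f6, H2ac, H2bc, H3c and H4c. This gave 65 of 55359 listed genes, with 6 for H1, 18 for H2A, 17 for H2B, 12 for H3 and 12 for H4. Their RNA was measured by RNA-seq in 4 libraries of cultured primary cardiac fibroblasts from hearts of wild-type mice at postnatal day 1 to 3. The cells overexpressed Nr4a3, an orphan nuclear receptor (OENr4a3, 2 libraries), or carried the overexpression control (OECtrl, 2 libraries). The sample titles give day 10 and the design text gives day 7 of reprogramming of fibroblasts toward induced cardiomyocyte-like cells, and the comparison asks on what molecular basis overexpressed Nr4a3 holds that reprogramming back. The labels do not give the vector, what the control carries or which reprogramming factors the cells received, nor whether the 2 libraries of a group came from separate cultures. P-values therefore describe how far these libraries differ, and that variation may be technical only.

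Replication-dependent histone genes are transcribed mainly in S phase, when new DNA must be packed into nucleosomes. Their typical mRNA has no intron and no poly(A) tail, and ends shortly after a 3′ stem-loop that is bound by Slbp, the stem-loop binding protein. Some genes of these clusters are also known to give longer, polyadenylated mRNAs in cells that have left the cell cycle, and replacement histones such as H3.3 are made throughout the cycle from genes with poly(A) signals.

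The libraries held 18441428 and 18287644 counted reads in OENr4a3, against 14275501 and 16461333 in OECtrl. Nr4a3 had 3184 and 3196 reads in OENr4a3, against 36 and 31 in OECtrl (log2 fold change 6.35, edgeR adjusted p = 1.13e-07), which matched the labels. All 10 fibroblast markers passed the low-count filter, with summed levels of 19170 and 19300 CPM (counts scaled to library size) in OENr4a3, against 18950 and 18000 in OECtrl. At an edgeR adjusted p under 0.05, 3 of the 10 were higher (Col1a1, Pdgfra and Ddr2) and 3 lower (Tcf21, Lum and Thy1). Of all tested genes, 12.0% were higher and 11.0% lower. Hba-a2 and Hbb-bt, of the erythroid list, were at 0, while Alas2 of that list had 25 and 17 reads in OENr4a3, against 14 and 4 in OECtrl. The OECtrl replicates differed from each other more than the OENr4a3 replicates, with a chi-square over its degrees of freedom of 2.64 in OENr4a3 and 17 in OECtrl.

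The 3′ end of the annotated transcripts varied among the histone genes. A histone stem-loop was found in an annotated transcript of 43 of the 65 genes, against 0.0289% of 55385 other annotated genes, and 60 of the 65 had no intron. For the 22 genes without a stem-loop there, the name rests on the symbol alone. Several of these have short annotated transcripts, such as H4c12 (312 bases), H2bc13 (381) and H3c10 (411), while others, such as H2bc21 (2620), are long. A stem-loop past the annotated end would not have been found. In 23 of the 43 genes the transcript ended within 100 bases after the stem-loop, and in 20 it ran on further. The stem-loops of the genes that fell in OENr4a3 are shown, since most histone reads came from genes whose transcript runs on past the stem-loop. They were read from GENCODE M21 transcripts on GRCm38, are written 5′ to 3′ on the gene's own strand, and have the stem arms in capitals around the loop.
H1f2, chr13:23739512-23739527, plus strand: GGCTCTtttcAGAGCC
H1f3, chr13:23555787-23555802, plus strand: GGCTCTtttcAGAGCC
H2ac6, chr13:23683477-23683492, minus strand: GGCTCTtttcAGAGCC
H2bc6, chr13:23585531-23585546, minus strand: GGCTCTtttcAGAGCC
H4c9, chr13:22040966-22040981, minus strand: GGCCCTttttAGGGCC
H4c8, chr13:23531458-23531473, plus strand: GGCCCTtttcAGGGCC
The H1, H2A and H2B genes of this set had the same 16 bases, while the H4 genes had another stem, and H4c9 and H4c8 differed in the loop. The annotated transcript ran on after the stem-loop for 840 bases in H1f2, 4884 in H1f3, 2010 in H2ac6, 1861 in H2bc6 and 330 in H4c9, but only 46 in H4c8. The seventh gene that fell, H2bc4, had no stem-loop in its annotated transcript: its coding exon at chr13:23684199-23684621 was spliced to an exon of 733 bases at chr13:23692176-23692908.

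Around their starts the histone genes shared short motifs. RefSeq promoter windows (GRCm38.p6, 250 bases before to 50 after the start) were matched by symbol for 58 of the 65 genes, giving 59 windows; H2ac14, H2bc21, H2bc24, H2bc4, H3c1, H3c7 and H4c14 were not matched. On either strand, the TATA box, searched as TATAAA, was found in 57.6% of the histone windows, against 13.6% of all 32851 windows. The CCAAT box, CCAAT, was found in 86.4% against 37.4%, and the octamer ATGCAAAT, the site of the factor Oct-1, in 22% against 1.74%. The H1 box AAACACA was found in 15.3% against 7.18%, and in 5 of 6 H1 windows. The octamer was found in 7 of 15 H2B and 6 of 17 H2A windows and in no H1, H3 or H4 window. The CCAAT box was found in every H1, H2A, H2B and H3 window but in 3 of 11 H4 windows. Matches were counted anywhere in the window. Windows of head-to-head neighbours can overlap, so a single site can count for both genes. The octamer of H2ac12 and that of H2bc12, for example, are the same bases, so the windows are not independent. The only TATAAA match of H2ac7, H2ac12, H2ac15, H2ac18 and H4c1 lay after the start, as did the only CCAAT match of H3c14 and H3c15. The stretches before the starts of the most abundant H1, the most abundant H4 and the pair of neighbours H2ac6 and H2bc4 are shown because these genes fell together. Capitals mark the 4 motifs, on either strand.
H1f2, chr13:23738657-23738806, plus strand: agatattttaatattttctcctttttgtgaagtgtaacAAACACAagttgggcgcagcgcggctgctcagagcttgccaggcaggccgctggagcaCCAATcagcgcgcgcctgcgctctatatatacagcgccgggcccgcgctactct
H4c9, chr13:22041363-22041512, minus strand: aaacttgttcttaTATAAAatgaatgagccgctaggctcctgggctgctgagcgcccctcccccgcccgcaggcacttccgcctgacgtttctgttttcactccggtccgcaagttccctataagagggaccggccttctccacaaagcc
H2ac6, chr13:23683960-23684198, minus strand: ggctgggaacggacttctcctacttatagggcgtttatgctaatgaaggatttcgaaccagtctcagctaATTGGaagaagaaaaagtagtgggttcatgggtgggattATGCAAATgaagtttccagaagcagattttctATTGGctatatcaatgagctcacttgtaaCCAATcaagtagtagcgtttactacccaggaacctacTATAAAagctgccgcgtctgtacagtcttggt
The H1f2 stretch held the H1 box followed by a CCAAT box. In the H4c9 stretch the only marked motif, TATAAA, began at -137 relative to the start. The H2ac6 stretch reached up to the annotated start of H2bc4 on the other strand and held the octamer, a TATA box and CCAAT boxes in both orientations. H2ac6 and H2bc4 were 1 of 14 head-to-head histone pairs whose annotated starts lay within 1000 bases (251 bases for this pair), and the 1 pair of which both genes had enough reads to be tested. A motif match is a run of letters and was not tested as a binding site.

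Summed over all 65 genes, histone RNA was lower in OENr4a3. The sum was 205.6 and 210.4 CPM in the OENr4a3 libraries, against 323.5 and 374.1 CPM in the OECtrl libraries. It averaged 208.0 ± 3.35 CPM in OENr4a3 and 348.8 ± 35.8 CPM in OECtrl (SD, n = 2 each), a ratio of 0.596. Both OENr4a3 libraries lay below both OECtrl libraries. These sums rest on 3733 and 3781 reads in OENr4a3, against 4675 and 6253 in OECtrl, or 0.0202% and 0.0207% of all counted reads in OENr4a3, against 0.0327% and 0.0380% in OECtrl. All 5 classes were lower in sum, with ratios of OENr4a3 over OECtrl of 0.611 for H1, 0.576 for H2A, 0.584 for H2B, 0.638 for H3 and 0.512 for H4. These class sums rest on few genes. H2ac6 had 5 and 5 of the 29 and 28 H2A reads in OENr4a3, against 19 and 23 of 42 and 43 in OECtrl. H4c9 had 101 and 92 of the 187 and 171 H4 reads in OENr4a3, against 199 and 247 of 276 and 327 in OECtrl. H2ac7 and H4c14, of the same classes, were higher in both OENr4a3 libraries. A sum over chosen genes was given no test. In bulk RNA, fewer cells in S phase and less histone RNA per cell cannot be told apart.

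**Figure D1:**
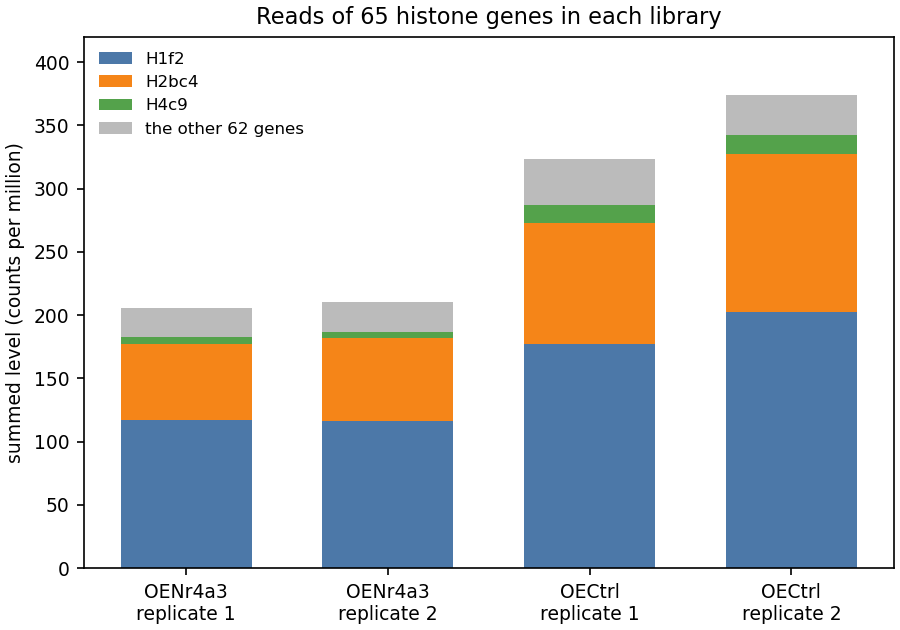
Summed level of the 65 histone genes in each library (vertical axis, CPM from 0), split into H1f2, H2bc4, H4c9 and the other 62 genes. The OENr4a3 bars end at 205.6 and 210.4 CPM and the OECtrl bars at 323.5 and 374.1 CPM, and H1f2 with H2bc4 fill most of every bar.

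A linker histone gene and an H2B gene carried nearly all of this RNA. H1f2 and H2bc4 together took 86.1% and 86.4% of the histone reads in OENr4a3, against 84.4% and 87.6% in OECtrl. Without them, the other 63 genes summed to 28.53 and 28.6 CPM in OENr4a3, against 50.52 and 46.54 CPM in OECtrl, a ratio of 0.589. H4c9 and H2bc6 were the next most abundant in CPM. Without these as well, the other 61 genes summed to 19.17 and 20.59 CPM in OENr4a3, against 28.3 and 26.56 CPM in OECtrl (ratio 0.725). Per kilobase of exon, H1f2 averaged 74.9 in OENr4a3 and 122 in OECtrl (CPM per kilobase, RPKM), and H2bc4 54.2 in OENr4a3 and 95.4 in OECtrl. The next gene on that scale, H4c9, averaged 7.35 RPKM in OENr4a3 and 19.6 RPKM in OECtrl, and none of the other 14 tested genes exceeded 4.90 RPKM in either group.

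Of the 65 genes, 17 passed the filter on low counts and 48 did not. Among the 48, 13 had no read in any library and 35 had reads, up to 13 in a single library. H2ac6 passed through its OECtrl reads only and H4c14 through its OENr4a3 reads only, so each had to differ between groups to be tested, and counts over the tested genes describe those genes alone. By edgeR's quasi-likelihood test with Benjamini-Hochberg adjustment over all 15029 tested genes, 7 of the 17 fell in OENr4a3 (41.2%) at an adjusted p under 0.05, where 11.0% of all tested genes fell. None rose, where 12.0% of all tested genes did; at an unadjusted p under 0.05, 1 was higher and 8 were lower (19.8% and 19.1% of all tested genes). DESeq2 called 6 lower and none higher (8.61% and 10.0% of all tested genes), and limma-voom 7 lower and none higher (11.0% and 12.7%). Without the low-count filter 5 of 52 histone genes with a read fell (9.62%) and none rose, where 2.76% of the 27419 genes with a read fell and 4.09% rose. Without H2ac6, 6 of 16 fell in the filtered test. The median log2 fold change was -0.53 over the 17 genes and -0.01 over all tested genes, and 12 of the 17 values were negative. In 9 genes both OENr4a3 libraries lay below both OECtrl libraries (34.2% of all tested genes did), in 2 they lay above (34.0% of all tested genes), and in 6 the groups overlapped.

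**Figure D2:**
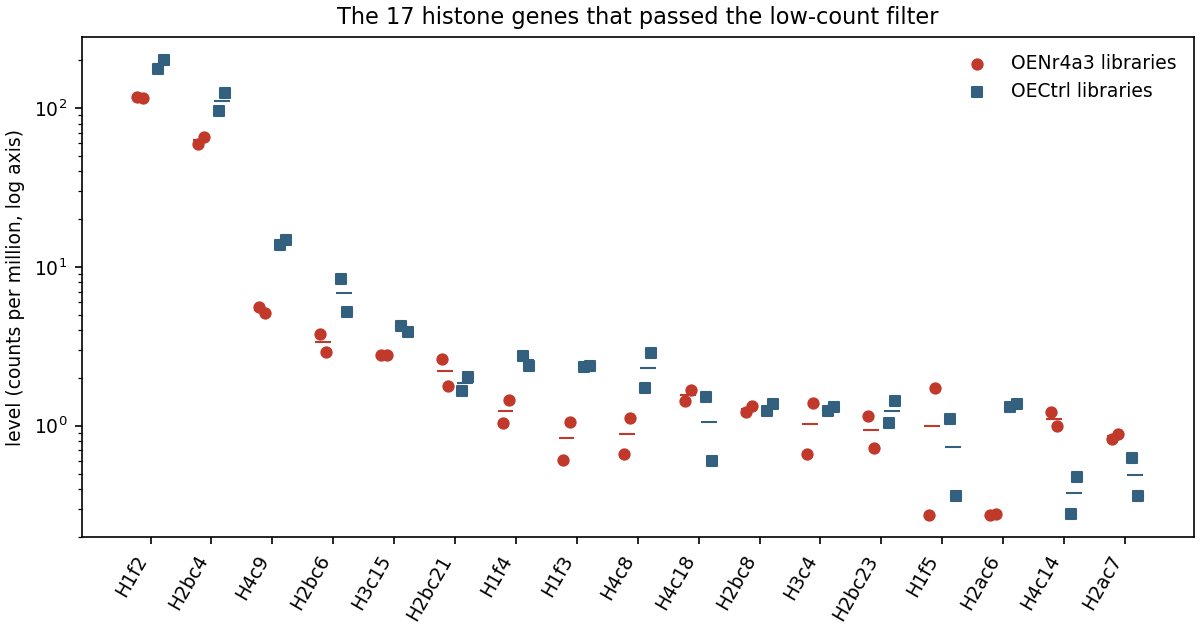
Level of each of the 17 tested histone genes in each library (vertical axis, CPM, log scale), ordered by mean level; circles are OENr4a3, squares OECtrl, and short lines the group means. On this scale, which is not per length, every library of all genes but H1f2, H2bc4 and, in OECtrl, H4c9 lies under 10 CPM.

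Among the linker histones, H1f2 and H1f3 fell. H1f2 (Hist1h1c, chr13:23738808-23740367, plus strand), which encodes H1.2, a main H1 of somatic cells, had 117.4 and 116.2 CPM in OENr4a3, against 177.4 and 202.5 CPM in OECtrl. The libraries did not overlap, and H1f2 was 1.63-fold lower (log2 fold change -0.70 ± 0.105 SE, adjusted p = 0.00309, edgeR's quasi-likelihood test). H1f3 (Hist1h1d, chr13:23553262-23560686), the gene of H1.3, had 11 and 19 reads in OENr4a3, against 34 and 40 in OECtrl. It stood at -1.51 ± 0.391 (edgeR adjusted p = 0.0254), without overlap, but without OENr4a3 replicate 1 the call was lost (-1.15, edgeR adjusted p = 0.216).

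The other H1 genes did not pass the test. H1f4 (Hist1h1e), the gene of H1.4, had 19 and 26 reads in OENr4a3, against 40 and 40 in OECtrl, and its log2 fold change was -1.04 ± 0.337 (edgeR adjusted p = 0.0516). Its groups did not overlap. It shares 496 exonic bases (chr13:23620629-23621124) with H2bc6 on the same strand, so reads there cannot be given to either gene. H1f5 (Hist1h1b), the gene of H1.5, had 5 and 31 reads in OENr4a3, against 16 and 6 in OECtrl, and differed more within groups than between them (0.48 ± 0.788, edgeR adjusted p = 0.688). H1f2 thus made up most of the H1 reads in all 4 libraries, and the H1 sum of 119.5 and 120.4 CPM in OENr4a3, against 184.4 and 208.0 CPM in OECtrl, is close to its own level.

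The H2A genes chosen by symbol had few reads. The 18 of them summed to 29 and 28 reads in OENr4a3, against 42 and 43 in OECtrl, and 7 had none. H2ac6 (Hist1h2ac, chr13:23681467-23683948, minus strand), which encodes a canonical H2A, had 5 and 5 reads in OENr4a3, against 19 and 23 in OECtrl. The groups did not overlap, and the gene was 4.76-fold lower (log2 -2.25 ± 0.50, edgeR adjusted p = 0.0147). Since it was tested only through its OECtrl reads, that call describes a gene that had to differ to enter the test. The call was lost without OENr4a3 replicate 1 (edgeR adjusted p = 0.125) or replicate 2 (0.118), with the log2 fold change at -2.23 and -2.25. H2ac7 (Hist1h2ad), another canonical H2A gene, had 15 and 16 reads in OENr4a3, against 9 and 6 in OECtrl. It was higher in both OENr4a3 libraries but did not pass the test (0.82 ± 0.520, edgeR adjusted p = 0.274), and 63.6% of the 100-base windows of its transcript occur in transcripts of other genes.

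Among the H2B genes, the most abundant ones fell. H2bc4 (Hist1h2bc, chr13:23684199-23692908, plus strand), an H2B gene whose annotated transcript is spliced, had 59.71 and 65.59 CPM in OENr4a3, against 95.57 and 125.0 CPM in OECtrl. The groups did not overlap, and H2bc4 was 1.76-fold lower (log2 -0.82 ± 0.138, edgeR adjusted p = 0.00533). Its ratio to H1f2 in reads was 0.509 and 0.565 in OENr4a3, against 0.539 and 0.617 in OECtrl, so both genes were lower by a like share. H2bc6 (Hist1h2be, chr13:23583670-23621124, minus strand), another H2B gene, had 69 and 52 reads in OENr4a3, against 122 and 87 in OECtrl. It was 2.02-fold lower (log2 -1.02 ± 0.278, edgeR adjusted p = 0.0302), without overlap. Its call was lost without OENr4a3 replicate 2 (-0.83, edgeR adjusted p = 0.098), without OECtrl replicate 1 (-0.63, 0.0814), which moved its value by over 1.5 times, and without the low-count filter (0.0675).

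The remaining tested H2B genes did not pass. H2bc21 (Hist2h2be, chromosome 3), a long H2B gene of 2620 exonic bases, had 48 and 32 reads in OENr4a3, against 24 and 34 in OECtrl, with overlap (0.25 ± 0.336, edgeR adjusted p = 0.61). H2bc23 (Hist1h2bq) had 21 and 13 reads in OENr4a3, against 15 and 24 in OECtrl, also with overlap (-0.40 ± 0.439, edgeR adjusted p = 0.529). H2bc8 (Hist1h2bg) had 22 and 24 reads in OENr4a3, against 18 and 23 in OECtrl, with overlap (-0.04 ± 0.376, edgeR adjusted p = 0.944). The 95% intervals of H2bc8 (-0.89 to 0.80) and H2bc23 (-1.39 to 0.58) hold the log2 fold change of H2bc4, and that of H2bc21 (-0.50 to 1.01) does not. Differences between these genes were not tested.

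Of the H3 genes, 2 of 12 were tested and neither passed. H3c15 (Hist2h3c2, chr3:96238108-96239127), which encodes H3.2, had 2.809 and 2.782 CPM in OENr4a3, against 4.221 and 3.889 CPM in OECtrl. The groups did not overlap, at a log2 fold change of -0.53 ± 0.240 (edgeR adjusted p = 0.132), and 61.6% of its 100-base windows are shared with other genes, among them its near copies H3c13 and H3c14. H3c4 (Hist1h3d), which encodes a replication-dependent H3 of the large cluster, had 12 and 25 reads in OENr4a3, against 18 and 22 in OECtrl, with overlap (-0.32 ± 0.457, edgeR adjusted p = 0.637).

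Of the 4 tested H4 genes, which encode the same protein, H4c9 and H4c8 fell. H4c9 (Hist1h4i, chr13:22040636-22041362, minus strand) had 5.563 and 5.118 CPM in OENr4a3, against 13.77 and 14.78 CPM in OECtrl. These groups lay far apart relative to their spread, and H4c9 was 2.67-fold lower (log2 -1.42 ± 0.162, edgeR adjusted p = 0.000763), the smallest p of the 17. H4c8 (Hist1h4h, chr13:23531050-23531519, plus strand) had 12 and 20 reads in OENr4a3, against 25 and 48 in OECtrl, without overlap (-1.38 ± 0.426, edgeR adjusted p = 0.0444). This call was the least stable: it was lost under 7 of 13 alternatives, among them DESeq2 (adjusted p = 0.0875), no low-count filter (0.0819), leaving out OENr4a3 replicate 1 (0.275) or 2 (0.0574) and leaving out OECtrl replicate 2 (0.211).

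H4c14 and H4c18 were not lower. H4c14 (Hist2h4, chr3:96261682-96263311, minus strand), the H4 gene of the chromosome 3 cluster, had 22 and 18 reads in OENr4a3, against 4 and 8 in OECtrl. The groups did not overlap, but the gene did not pass the test (1.51 ± 0.517, edgeR adjusted p = 0.0615). Once each library was corrected for its trend of log2 CPM over exonic length, it did (1.74, edgeR adjusted p = 0.0380), but it entered the test only through its OENr4a3 reads, the group where it is higher. H4c18 (Hist1h4n) had 26 and 30 reads in OENr4a3, against 22 and 10 in OECtrl, with overlap after scaling (0.57 ± 0.472, edgeR adjusted p = 0.398), and 80.7% of its 100-base windows are shared with other genes.

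**Figure D3:**
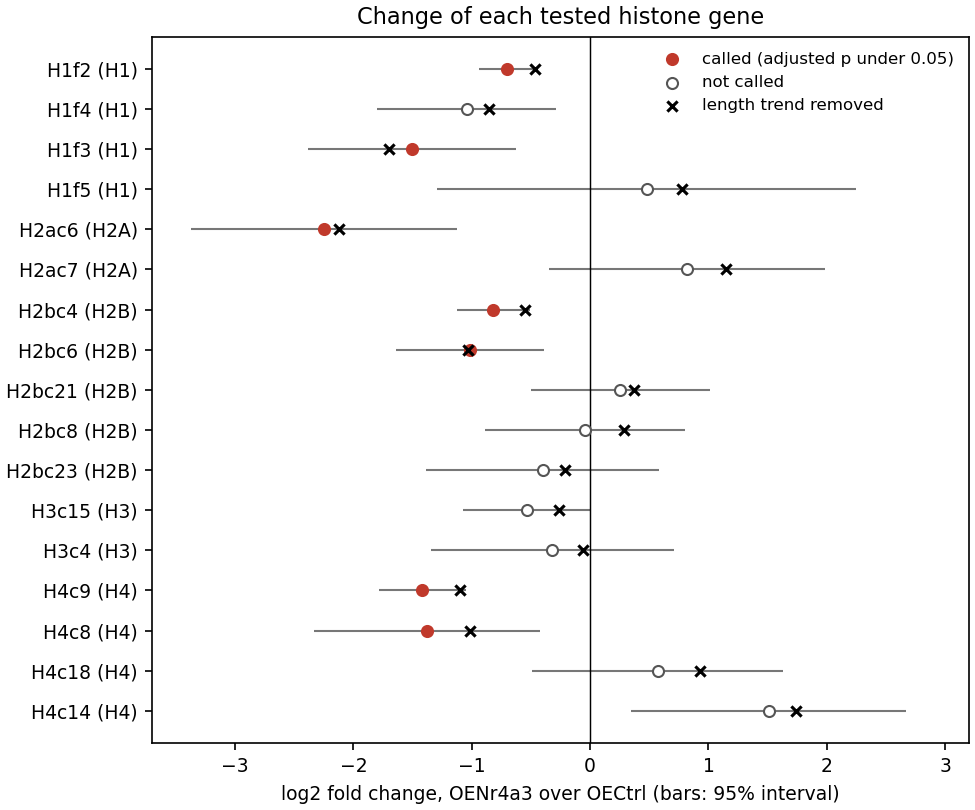
Log2 fold change of OENr4a3 over OECtrl for the 17 tested histone genes, grouped by class (horizontal axis, log2; lines are 95% intervals, filled circles genes at an adjusted p under 0.05, crosses the value with the length trend removed). The 7 filled circles lie between -2.25 and -0.70, and H4c14 lies at 1.51, or at 1.74 with the trend removed.

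The reads came mostly from genes with long annotated transcripts. The 16 genes of at least 1000 exonic bases held 93.6% and 93.0% of the histone reads in OENr4a3, against 92.1% and 93.4% in OECtrl. The 49 shorter genes summed to 13.16 and 14.8 CPM in OENr4a3, against 25.54 and 24.65 CPM in OECtrl, a ratio of 0.557. That difference rests on H4c9 and H4c8: without these, the other 47 genes summed to 6.94 and 8.57 CPM in OENr4a3, against 10.03 and 7.00 CPM in OECtrl, with overlap, and of the 6 tested shorter genes 3 had a negative and 3 a positive log2 fold change. The 20 genes whose transcript runs on for over 100 bases after the stem-loop summed to 136.1 and 134.2 CPM in OENr4a3, against 214.9 and 237.9 CPM in OECtrl. The 23 genes whose transcript ends within 100 bases, the typical form of a replication-dependent histone mRNA, summed to only 4.847 and 5.786 CPM in OENr4a3, against 6.851 and 6.102 CPM in OECtrl. The sum over the 20 genes was lower in OENr4a3 without overlap, at a ratio of 0.597. H1f2 made up most of it, with 2131 of 2470 and 2088 of 2413 reads in OENr4a3. In OECtrl it had 2564 of 3106 and 3385 of 3977 reads, and no sum without H1f2 was made. The sum over the 23 genes did not overlap either (0.821), but without H4c8 the other 22 genes summed to 4.186 and 4.673 CPM in OENr4a3, against 5.121 and 3.231 CPM in OECtrl. These overlapped, at a ratio of 1.06, and of the 3 tested genes among the 23, 2 had a positive log2 fold change. Reads were counted per gene and the sets rest on annotation, so the form of mRNA that the reads came from was not measured. The difference between the sets was not tested, and the sums without H4c8 and H4c9 were chosen after their values were seen. A poly(A) signal (AATAAA or ATTAAA) stood in the last 50 bases of a transcript of 14 genes, H1f2, H2bc6, H4c8 and H4c9 among them, which held 64.6% and 61.4% of the histone reads in OENr4a3, against 63.7% and 61.6% in OECtrl.

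The labels name the RNA as polyA and also name a kit that depletes ribosomal RNA. Other RNAs without a poly(A) tail were scarce in the counts: of 16 table rows for such RNAs, among them Rnu7, the small nuclear RNA of histone 3′ end processing, 10 were at 0 in all 4 libraries. Their summed level was 0.661 and 0.167 CPM in OENr4a3, against 1.25 and 4.31 CPM in OECtrl, and none was tested. These RNAs are also short, from 62 exonic bases for Rnu7 to 414 for Scarna2. Whether their length or the lack of a poly(A) tail kept them scarce was not tested. How much histone mRNA without a poly(A) tail the libraries could hold was not tested.

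All 7 genes that fell lie in the large cluster on chromosome 13, as do 14 of the 17 tested histone genes. The 55 genes there summed to 198.9 and 204.6 CPM in OENr4a3, against 317.4 and 367.7 CPM in OECtrl (ratio 0.589). The 10 genes of the chromosome 3 cluster summed to 6.72 and 5.73 CPM in OENr4a3, against 6.16 and 6.401 CPM in OECtrl (ratio 0.991), with overlap, and none of its 3 tested genes passed. The difference between the clusters was not tested. Reads of near-identical copies cannot be placed with certainty. The 29 genes with at least 50% of their 100-base windows shared with other genes summed to 7.99 and 7.18 CPM in OENr4a3, against 10.8 and 8.50 CPM in OECtrl. The 36 others summed to 197.6 and 203.2 CPM in OENr4a3, against 312.7 and 365.6 CPM in OECtrl. They hold 13 of the 17 tested histone genes and all 7 genes that fell. The 5 genes with every window shared, H2ac18, H2ac19, H2bc18, H3c13 and H3c14, had no read.

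Shorter genes as a whole were lower in OENr4a3. Over all tested genes, Spearman's rho of the log2 fold change with exonic length was 0.42, and the median log2 fold change was -0.48 for 393 genes under 500 bases, -0.41 for 692 from there to under 1000, -0.32 for 1804 from there to under 2000, -0.12 for 4392 from there to under 4000 and 0.14 for 7748 of 4000 or more. The tested histone genes had a median length of 1249 bases, against 4126 for all tested genes. With the length trend removed from each library, H1f2 stood at -0.47, H2bc4 at -0.55, H4c9 at -1.10, H2bc6 at -1.03, H1f3 at -1.70 and H2ac6 at -2.12, and all 6 were still called by edgeR's quasi-likelihood test. H4c8 was not (-1.01, edgeR adjusted p = 0.109). On that scale 6 of the 17 genes fell and 1 rose, where 11.1% of all tested genes fell and 8.72% rose, and the median was -0.26. H1f2, H2bc4 and H4c9 were called under all 13 alternatives, at log2 fold changes of -0.79 to -0.47, -0.99 to -0.51 and -1.47 to -1.10.

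**Figure D4:**
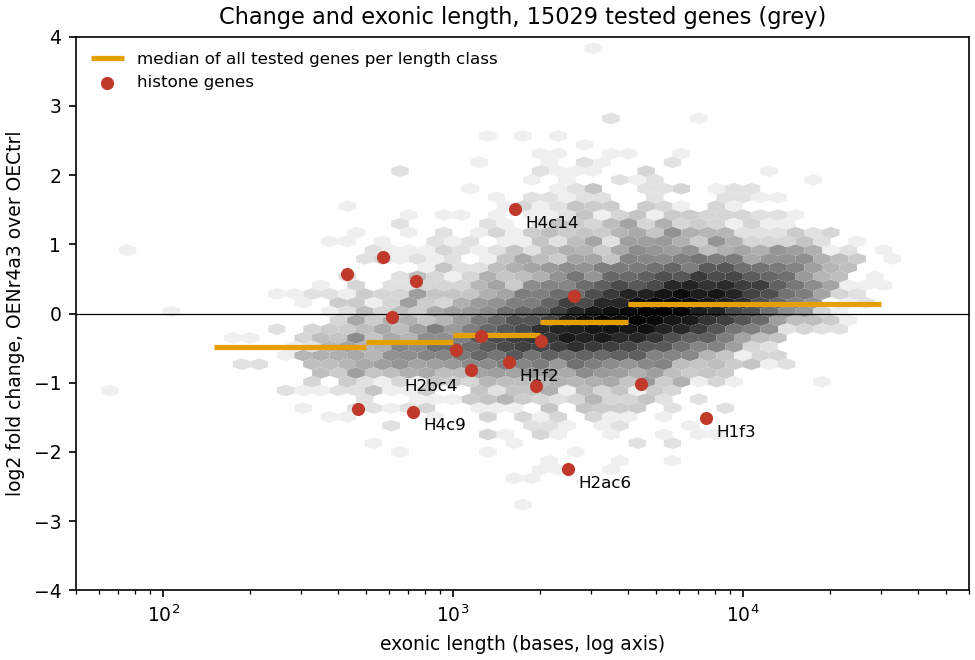
Log2 fold change of OENr4a3 over OECtrl against exonic length (bases, log scale) for the 15029 tested genes (grey, darker where more genes lie; genes beyond 4 on the log2 scale are not drawn), with the 17 tested histone genes as points and the median of each length class as a line. The class medians go from -0.48 in the shortest to 0.14 in the longest genes, and H4c9, H1f3 and H2ac6 lie far below the median of their own class.

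Of 30 tested genes of histone mRNA processing and transcription, 4 rose (13.3%) and 3 fell (10.0%), near the 12.0% and 11.0% of all tested genes, with a median log2 fold change of -0.01. Slbp averaged 26.56 ± 1.93 CPM in OENr4a3 and 31.10 ± 1.12 CPM in OECtrl (-0.23 ± 0.122, edgeR adjusted p = 0.198). Npat, the cyclin E-Cdk2 target that activates histone transcription, averaged 37.15 ± 1.36 CPM in OENr4a3 and 33.98 ± 3.22 CPM in OECtrl (0.13, edgeR adjusted p = 0.454). Neither passed the test, nor did the histone locus body gene Casp8ap2 (0.32, edgeR adjusted p = 0.113) or the U7 snRNP gene Lsm11 (-0.01, 0.990), although Casp8ap2 did without OECtrl replicate 1 (0.47, 0.00699). The genes that rose included Tut4, a terminal uridylyltransferase, at 41.77 ± 0.178 CPM in OENr4a3 and 24.29 ± 3.72 CPM in OECtrl (0.79, edgeR adjusted p = 0.00552), and Atm, a DNA damage kinase (1.05, 0.00644). Those that fell included Ccne2, a cyclin E gene (-0.89, edgeR adjusted p = 0.0120), and E2f1, an activator of S phase genes (-0.48, 0.0289), whose call was lost without OENr4a3 replicate 1 (0.364) or 2 (0.144). With the length trend removed 2 of this list rose and 4 fell, where 8.72% of all tested genes rose and 11.1% fell.

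Of 40 tested S phase genes, 14 fell (35.0%) and none rose, where 11.0% of all tested genes fell and 12.0% rose (median -0.39). At an unadjusted p under 0.05, 20 were lower and none higher (19.1% and 19.8% of all tested genes). DESeq2 called 7 lower and none higher (8.61% and 10.0% of all tested genes), and limma-voom 14 lower and none higher (11.0% and 12.7%). Ccna2, the S phase cyclin A2, averaged 12.10 ± 0.281 CPM in OENr4a3 and 21.13 ± 1.01 CPM in OECtrl (-0.81, edgeR adjusted p = 0.0052). Rrm2, a subunit of ribonucleotide reductase, averaged 18.80 ± 0.328 CPM in OENr4a3 and 31.71 ± 3.30 CPM in OECtrl (-0.75, edgeR adjusted p = 0.00597). Both groups were apart for each gene, and so they were for Rfc4, a clamp loader subunit (-0.89, edgeR adjusted p = 0.0103), whose call was lost without OENr4a3 replicate 2 (0.0534). With the length trend removed 11 of the list fell and none rose, where 11.1% of all tested genes fell and 8.72% rose. Slbp, E2f1, Ccne1 and Ccne2 stand in both lists.

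Of 27 tested chaperone and assembly genes, 4 rose (14.8%) and 7 fell (25.9%), where 12.0% of all tested genes rose and 11.0% fell (median -0.22). Among those that fell were Asf1b, a chaperone of new H3-H4, at 3.820 ± 0.0513 CPM in OENr4a3 and 7.292 ± 0.159 CPM in OECtrl (-0.93, edgeR adjusted p = 0.0122), and Chaf1b, a subunit of the replication-coupled assembly factor CAF-1 (-0.83, 0.00953). Dnajc9, a heat shock co-chaperone of H3-H4, also fell (-0.66, edgeR adjusted p = 0.00879). The call of Asf1b was lost without OENr4a3 replicate 2 (edgeR adjusted p = 0.0556), that of Chaf1b without replicate 1 (0.0722) and that of Dnajc9 without either (0.0785 and 0.0760). The genes that rose were Ubn1, Ubn2 and Cabin1, of the HIRA complex that deposits H3.3, and Atrx, which acts with Daxx. Ubn2 averaged 62.84 ± 2.24 CPM in OENr4a3 and 38.37 ± 4.26 CPM in OECtrl (0.71, edgeR adjusted p = 0.00482), but with the length trend removed it stood at 0.17 (0.245). On that scale none of the list rose and 8 fell, where 8.72% of all tested genes rose and 11.1% fell.

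Of 12 replacement histone genes, all tested, 1 fell (8.33%) and none rose, where 11.0% of all tested genes fell and 12.0% rose (median -0.21). At an unadjusted p under 0.05, 4 were lower and none higher (19.1% and 19.8% of all tested genes). DESeq2 called 1 lower and none higher (8.61% and 10.0% of all tested genes), as did limma-voom (11.0% and 12.7%). H2aj, an H2A variant, averaged 26.96 ± 1.44 CPM in OENr4a3 and 43.77 ± 9.34 CPM in OECtrl (-0.70 ± 0.153, edgeR adjusted p = 0.0140), a call lost without OENr4a3 replicate 1 (0.0758). H1f0, the linker histone of non-dividing cells, averaged 170.1 ± 4.49 CPM in OENr4a3 and 156.7 ± 20.8 CPM in OECtrl (0.12, edgeR adjusted p = 0.473). H1f0 thus overlapped between groups, and the ratio of H1f2 to H1f0 reads was 0.703 and 0.671 in OENr4a3, against 1.25 and 1.18 in OECtrl. With the length trend removed H1f0 rose (0.30, edgeR adjusted p = 0.0358), as it did without OECtrl replicate 2 (0.26, 0.0074).

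The other replacement histones did not pass the test. The H3.3 genes H3f3a and H3f3b stood at -0.11 and -0.17, with H3f3b at 342.2 ± 17.4 CPM in OENr4a3 and 386.1 ± 54.9 CPM in OECtrl. The H2A.Z genes H2az1 and H2az2 stood at -0.39 and -0.34 (edgeR adjusted p = 0.0689 and 0.0906), and H2ax, whose product is phosphorylated at DNA breaks, at -0.41 (0.0810). The macroH2A genes Macroh2a1 and Macroh2a2 stood at -0.10 and 0.09, the centromeric H3 gene Cenpa at -0.25, the H3.3-related H3f3c at -0.55 and the linker histone gene H1f10 at 0.10. Without OECtrl replicate 1, H3f3b stood at -0.31, H3f3a at -0.20, H2az2 at -0.44, H2ax at -0.53 and Macroh2a1 at -0.23. Without OECtrl replicate 2, H2az1 stood at -0.45.

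Summed markers of some other cell types were lower in OENr4a3 as well. Marker counts below use an edgeR adjusted p under 0.05, by which 11.0% of all tested genes fell and 12.0% rose. Macrophage markers summed to 618.2 and 598.1 CPM in OENr4a3, against 931.5 and 916.4 CPM in OECtrl, with 3 of 6 lower. Mesothelial or epicardial markers summed to 423.7 and 388.8 CPM in OENr4a3, against 826.7 and 926.3 CPM in OECtrl, with 3 of 5 lower. Endothelial markers summed to 46.2 and 51.4 CPM in OENr4a3, against 55.4 and 54.6 CPM in OECtrl, with 1 of 6 lower. The endothelial difference rests on Emcn, without which the sums were 40.21 and 43.84 CPM in OENr4a3, against 45.4 and 39.72 CPM in OECtrl, with overlap. Smooth muscle or pericyte markers summed to 52.0 and 52.5 CPM in OENr4a3, against 39.2 and 30.03 CPM in OECtrl, with 1 of the 4 tested higher and 1 lower. That difference rests on Cspg4, without which they were lower in OENr4a3, at 14.98 and 19.36 CPM, against 22.84 and 20.1 CPM in OECtrl. Both genes were picked out after their values were seen. Cardiomyocyte markers summed to 7.44 and 4.67 CPM in OENr4a3, against 2.56 and 1.14 CPM in OECtrl. The 1 tested gene of that list, Myh6, rose (2.68, edgeR adjusted p = 0.0232) but was not called by DESeq2. Erythroid markers summed to at most 1.38 CPM in OENr4a3 and 0.969 CPM in OECtrl. The part of these cells in the histone result was not tested.

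Most histone genes had few reads. A count of 3 reads corresponds to 0.165 and 0.167 CPM in the OENr4a3 libraries and to 0.208 and 0.179 CPM in the OECtrl libraries, and covers counting error only. Without the low-count filter, none of the 35 genes with a read that the filter left out passed edgeR's test, and 1 was lower and none higher at an unadjusted p under 0.05. That gene, H2bc24, named after its values were seen, had 1 and 1 reads in OENr4a3, against 13 and 5 in OECtrl (unadjusted p = 0.0136, edgeR adjusted p = 0.104).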

How the data were processed

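Per the file headers, the authors deposited raw counts for each Ensembl gene as 1 column per library. The labels' protocols name TRIzol extraction, ribosomal RNA depletion and a stranded paired-end library kit. The submitters' processing notes list the build mm10, featureCounts, SAMtools, Subread 1.5.1 and Trimmomatic 0.36. Not given in the sources used here are the aligner, the annotation release, the strand setting and the handling of reads that map to several genes. The 4 deposited FPKM columns were not used. Exonic lengths were taken as deposited and equalled GENCODE M21 for 65 of 65 genes, whereas gene starts and ends did so for 0, so coordinates are those of GENCODE M21 (GRCm38), matched by Ensembl identifier.

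Genes were tested with edgeR 4.0.16 (R 4.3.3): filterByExpr (minimum count 10), TMM factors of 0.9857 and 0.9842 (OENr4a3) and 1.014 and 1.017 (OECtrl), and the two-sided quasi-likelihood F-test (glmQLFit, glmQLFTest) without a replicate block, with Benjamini-Hochberg adjustment over 15029 genes. An adjusted p under 0.05 was called. CPM use TMM-scaled library sizes, and RPKM divide them by exonic length. The biological coefficient of variation was 0.0955. Alternatives used DESeq2 1.42.0, limma 3.58.1 (voom), other scalings and filters, removal of length and GC trends (lowess, span 0.3; GC known for 99.8% of tested genes), a replicate block and leaving out each library. The fit was tested on simulated data. Samples were grouped by their titles. The labels do not pair replicate numbers, and the deviations of same-numbered libraries correlated at -0.078.

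The genes and lists were chosen with earlier results of these data known. Named are every called histone gene, the 3 most abundant and the 3 of smallest p per class, the 3 longest, Slbp, Npat, Casp8ap2 and Lsm11, the 4 genes of smallest p per related list and all replacement histones; further genes named in the text as members of a count or a pair were chosen after their values were seen. Stem-loops were searched in GENCODE M21 transcripts, shared sequence was counted in windows of 100 bases, and promoter windows are from RefSeq.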

Additional observations from a re-analysis of the deposited data

How the results depend on the processing

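All called histone genes kept their direction under the 13 alternatives. In all, 3457 genes were called, but 1878 without the low-count filter, 911 at an adjusted p under 0.01, and 1203 to 7133 when 1 library was left out, fewest without OENr4a3 replicate 2 (1300 without OENr4a3 replicate 1) and most without OECtrl replicate 1. Of the 7 histone genes that fell, 3 passed an adjusted p under 0.01. When 1 library was left out, 4 to 7 of the histone genes then tested fell, with 4 without either OENr4a3 replicate. Counts of called histone genes in those fits are therefore not compared with the main count. No histone gene rose, except 1 (H4c14) with the length trend removed and 1 with the length and GC trends removed. The median of -0.53 was -0.70 with a filter of 1 CPM in 2 libraries, where fewer genes were tested, -0.26 with the length trend and -0.32 with the length and GC trends removed, and -0.91 to -0.60 when 1 library was left out and the filter was drawn anew. With a length limit of 1500 bases, longer genes held 61.2% of the histone reads in OENr4a3 and 59.6% in OECtrl; the limit then leaves out H2bc4. With the replicate number as a block, 3851 genes were called, 8 histone genes fell (H1f4 in addition, edgeR adjusted p = 0.0382), 0 rose and the median was -0.53; the labels give no pairing. H1f4 was also called with upper-quartile scaling (0.0453) and the filter of 1 CPM (0.0466). Where a cause is not given above, the cause was not tested. Of the 65 genes, 48 had too few reads to be tested with the filter.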

Other observations

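Several genes with histone symbols in GENCODE M21 carry other symbols in the count table and so were not among the 65 genes; they were chosen after their values were seen. H2af-ps2 (Hist1h2al in GENCODE M21) had 184 and 170 reads in OENr4a3, against 184 and 274 in OECtrl, or 28.9 RPKM in OENr4a3 and 43.0 RPKM in OECtrl over 339 exonic bases. It fell (log2 fold change -0.58 ± 0.168, edgeR adjusted p = 0.0376), and per kilobase it stood above H4c9. Its reads exceeded those of the 18 H2A genes together, at 29 and 28 in OENr4a3, against 42 and 43 in OECtrl. The H2A sum and ratio given above therefore hold only for the genes chosen by symbol. H2aw (Hist3h2a) had 64 and 63 reads in OENr4a3, against 80 and 88 in OECtrl, without overlap in CPM (-0.62 ± 0.212, edgeR adjusted p = 0.0619). H2bu2 had 0 and 0 reads in OENr4a3, against 2 and 0 in OECtrl, and H4f16 0 and 0 in OENr4a3, against 1 and 0 in OECtrl.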
